A study of Mus musculus with 4 samples.

Results

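Cell cycle and DNA replication genes were described as a list of 49 genes, 20 of S phase and 29 of mitosis, among the 32285 genes of the RNA matrices. The list was set by gene function and each member matched 1 row. Its readings came from nuclei of C57BL/6J mice aged 6 to 12 weeks whose livers were dissociated, enriched and sorted for CD45+ CD64- CD11c+ cells, after which RNA and open chromatin were read from the same nuclei (10x Multiome, which pairs single-nucleus RNA-seq with ATAC-seq, a transposase assay of accessible DNA). The D0 group was untreated and the D5 group had received chow with 0.1% DDC (3,5-diethoxycarbonyl-1,4-dihydrocollidine), a diet that produces bile duct injury, for 5 days. Each day was 1 library, and the sources used here do not say how many mice entered it. No test between days could therefore be made, and all intervals are 95% intervals that cover counting error only.

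A dividing cell first licenses its replication origins with the MCM helicase, copies its DNA in S phase with the sliding clamp PCNA and with nucleotides made by ribonucleotide reductase, and then condenses and separates its chromosomes under cyclin B and CDK1 with kinetochore proteins, spindle motors and the proteins of cytokinesis. Transcripts of the first group are made mainly from late G1 into S phase, under E2F factors, and those of the second mainly in G2 and mitosis, often through promoters with a CHR element and CCAAT boxes. Conventional dendritic cells (cDC1 and cDC2) still divide in tissue after leaving the bone marrow as precursors (preDC), whereas plasmacytoid dendritic cells (pDC), nonclassical monocytes and neutrophils are largely post-mitotic.

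The promoters of 3 S phase and 3 mitotic members are shown because they carry the letters of these elements, and because their accessibility was measured in the same nuclei. Each is the 150 bases before the RefSeq start site (build GRCm38.p6), read 5′ to 3′ on the gene's strand, with matches to 3 elements in capitals on either strand: E2F (TTTGGCGC, TTTCCCGC or TTTGGCGG), CHR (TTTGAA or TTCGAA) and CCAAT. No searched word contains another. The S phase promoters are Mcm6 (chr1:128359706-128359855, minus strand), Hells (chr19:38930840-38930989, plus strand) and Pola1 (chrX:93632156-93632305, minus strand). The mitotic promoters are Cdk1 (chr10:69352913-69353062, minus strand), Top2a (chr11:99024190-99024339, minus strand) and Kif11 (chr19:37376232-37376381, plus strand).
Mcm6: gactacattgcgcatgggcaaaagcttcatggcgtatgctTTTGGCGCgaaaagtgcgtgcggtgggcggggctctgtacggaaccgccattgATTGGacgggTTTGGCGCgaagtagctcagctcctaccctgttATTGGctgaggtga
Hells: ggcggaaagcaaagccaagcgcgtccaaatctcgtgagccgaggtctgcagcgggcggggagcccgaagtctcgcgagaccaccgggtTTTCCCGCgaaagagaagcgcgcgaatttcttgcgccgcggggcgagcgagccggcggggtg
Pola1: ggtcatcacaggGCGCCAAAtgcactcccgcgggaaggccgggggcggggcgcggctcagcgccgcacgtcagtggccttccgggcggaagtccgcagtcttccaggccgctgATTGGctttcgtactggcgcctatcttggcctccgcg
Cdk1: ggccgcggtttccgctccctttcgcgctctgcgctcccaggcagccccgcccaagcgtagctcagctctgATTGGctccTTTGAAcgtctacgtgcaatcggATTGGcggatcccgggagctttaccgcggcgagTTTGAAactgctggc
Top2a: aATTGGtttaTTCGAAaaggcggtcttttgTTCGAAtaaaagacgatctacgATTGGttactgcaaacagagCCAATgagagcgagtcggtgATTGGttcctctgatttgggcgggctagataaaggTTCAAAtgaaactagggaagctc
Kif11: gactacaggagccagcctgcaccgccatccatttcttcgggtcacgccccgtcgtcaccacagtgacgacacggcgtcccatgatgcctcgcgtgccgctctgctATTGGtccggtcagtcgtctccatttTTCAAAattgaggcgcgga

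In Mcm6, a helicase subunit, the E2F words began 110 and 47 bases before the start site. In Hells, a chromatin remodeler of S phase, the word began 62 bases before it, and in Pola1, the catalytic subunit of DNA polymerase alpha, 138 bases before it. In Cdk1, the kinase that drives entry into mitosis, CHR words began 71 and 15 bases before the start, each downstream of a CCAAT box at 80 and 48 bases. Top2a, the topoisomerase that untangles chromosomes, had 4 CCAAT boxes and 3 CHR words in the 150 bases, and Kif11, the motor that separates spindle poles, had a CCAAT box at 45 and a CHR word at 19 bases. Over the 250 bases before the start, an E2F word was found in 6 of the 17 S phase members with a promoter in the table (35.3%), in 1 of the 25 mitotic members (4%) and in 1.77% of all 27025 promoters. A CHR word was found in 3 of 17 S phase members (17.6%), 9 of 25 mitotic members (36%) and 17.4% of all promoters. CCAAT was common to both lists, with 13 of 17 (76.5%) and 17 of 25 (68%), against 34.5% of all promoters. Among other cell cycle genes, which are not members, an E2F word was found in 5 of 46 S phase genes (10.9%) and 8 of 75 mitotic genes (10.7%). CHR was found in 15.2% and 38.7% of them, and CCAAT in 43.5% and 70.7%. The difference in E2F words between the member lists was thus not seen in these larger lists. All these counts are matches of letters in a fixed window and say nothing on which factor was bound.

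After filters, 10982 nuclei of D0 and 19832 of D5 were kept, with a median of 1732 and 2556 UMIs (unique molecular identifiers, each 1 counted RNA molecule) per nucleus, so depth differed with the day. Of the called barcodes, 591 occurred in both libraries. Clusters were built without the listed cell cycle genes and named from markers. The cDC1-like cluster raised 10 of 10 cDC1 markers, among them Xcr1 and Clec9a, while each cDC2-like cluster raised 4 or 5 of 10 cDC2 markers, so the second name is the less secure. The preDC-like name is the least secure, since it rests on 5 preDC markers above the cDC2-like level, while the cluster also raised 3 of 8 classical monocyte markers. A cluster with 9 of 10 cDC1 markers and 7 NK cell markers (628 nuclei at D0 and 89 at D5) and a cluster with 9 cDC1 and 5 pDC markers (168 and 78 nuclei) were left unnamed. NK cell-like, T cell-like and macrophage-like nuclei were also present although the sort asked for CD11c. In them Itgax, which encodes CD11c, reached 200 to 355 CPM (UMIs of the gene per 1000000 UMIs of the class and day), against 201 to 285 in cDC1-like and cDC2-like nuclei. Fcgr1, which encodes CD64, was at 41 CPM at D0 and 81 at D5 in macrophage-like nuclei and at 0.97 to 18.5 in the conventional classes. A doublet filter removed 46.8% of the D0 nuclei and 46.6% of the D5 nuclei that held 4 or more UMIs of the list, against 1305 of 10020 other nuclei of D0 and 17.2% of those of D5. Without that filter the falls in the cDC1-like sums were larger, at -0.53 for S phase and -0.66 for mitosis on the log2 scale.

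The S phase members together were highest in cDC1-like nuclei at both days. Their sum was 1483 CPM at D0 (interval 1446 to 1521, 1715 nuclei) and 1115 at D5 (1094 to 1136, 2937 nuclei). In cDC2-like nuclei it was 904 (874 to 935, 1816 nuclei) and 625 (613 to 638, 5374 nuclei). The intervals of the 2 classes were apart at each day. T cell-like nuclei held 776 and 1058, the latter with an interval of 990 to 1129 that overlapped that of cDC1-like nuclei, NK cell-like nuclei 787 and 802, and preDC-like nuclei 694 and 447. Lower sums at D0 were those of macrophage-like nuclei with 547 and 459, Ccr7+ DC-like nuclei (dendritic cells with the migration receptor Ccr7) with 530 and 498, pDC-like nuclei with 445 and 418 and nonclassical monocyte-like nuclei with 443 and 419, and the intervals of the last 2 overlapped at both days. Neutrophil-like nuclei, 92 of them at D5, held 521 (423 to 636).

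The mitotic members gave nearly the same order. Their sum was 1513 CPM at D0 (1475 to 1551) and 1054 at D5 (1034 to 1074) in cDC1-like nuclei, and 943 (912 to 974) and 580 (568 to 592) in cDC2-like nuclei. PreDC-like nuclei stood beside cDC2-like nuclei at D0 with 931 (836 to 1033) and below them at D5 with 432 (411 to 455). Smc4 made up 117 of the 353 mitotic UMIs of preDC-like nuclei at D0, at 309 CPM, and Diaph3 and Racgap1 were also highest in this class, while 2.90% of its nuclei held 10 or more list UMIs against 7.49% of cDC2-like nuclei. T cell-like nuclei held 713 at D0 and 1006 at D5, where the interval of 940 to 1075 overlapped that of cDC1-like nuclei. NK cell-like nuclei held 658 and 655. Nonclassical monocyte-like nuclei held 477 (372 to 602) and 394 (329 to 468). At the low end were also pDC-like nuclei with 412 and 374, macrophage-like nuclei with 362 and 283 and Ccr7+ DC-like nuclei with 293 and 389. The 92 neutrophil-like nuclei of D5 held 697 (583 to 827), and 2 of them had 10 or more list UMIs.

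**Figure D1:**
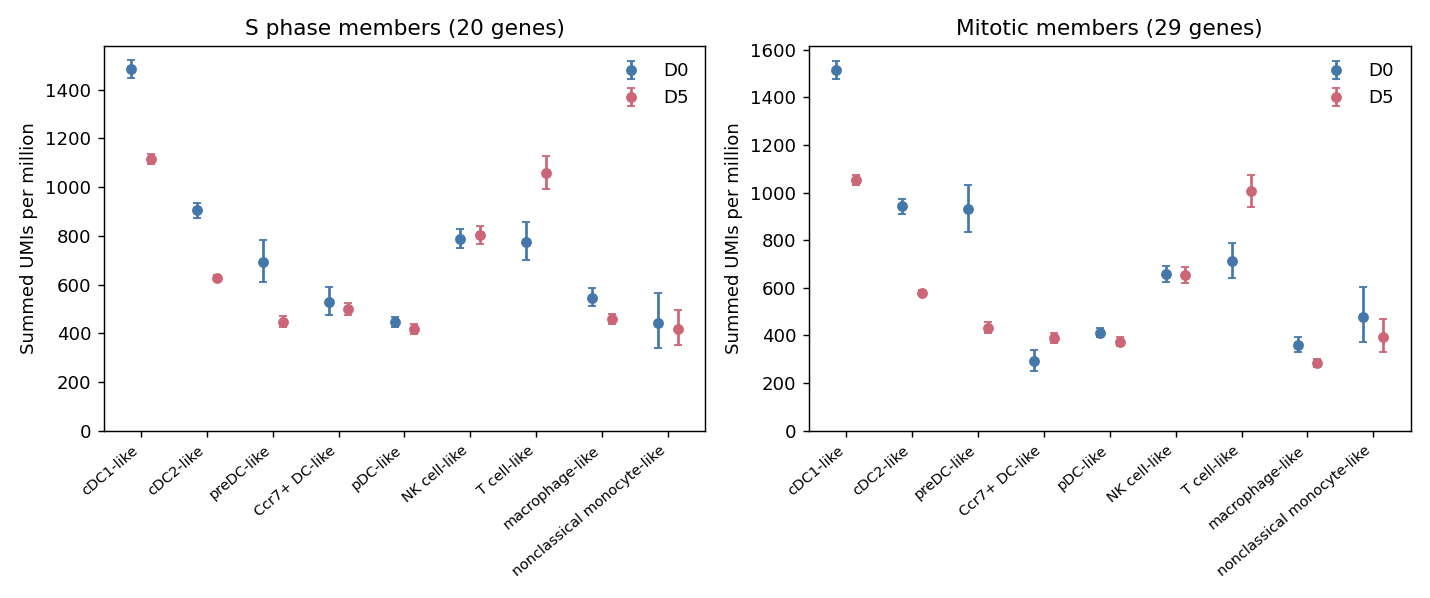
Summed CPM (vertical axis) of the 20 S phase members (left) and the 29 mitotic members (right) in each marker-named class (horizontal axis), D0 in blue and D5 in red, 1 library per day; points are the values and bars 95% Poisson intervals. The cDC1-like points are the highest of the S phase panel at both days, and in T cell-like nuclei the D5 point lies above the D0 point in both panels.

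In the conventional classes much of the list's UMIs lay in few nuclei. In cDC1-like nuclei the median nucleus had 2 list UMIs at either day, while the 273 nuclei of D0 with 10 or more (15.9%) carried 72.0% of the class's list UMIs and the 457 such nuclei of D5 (15.6%) carried 70.4%. In cDC2-like nuclei 136 nuclei (7.49%) carried 56.6% at D0 and 272 (5.06%) carried 49.1% at D5. In pDC-like nuclei 5 of 2343 nuclei reached 10 at D0 and 8 of 2062 at D5, and they carried 3.19% and 7.49%. In macrophage-like nuclei such nuclei carried 17.0% and 21.1%. Intervals on summed UMIs treat each UMI as independent and are therefore narrower than the spread between nuclei would allow. Among the cDC1-like nuclei with 10 or more, S phase members made up at least 75% of the list UMIs in 19.0% at D0 and 21.9% at D5, and at most 25% in 18.7% and 15.1%. The other 170 and 288 nuclei held both groups. In cDC2-like nuclei S phase members dominated 15 of the 136 nuclei at D0 and 35 of the 272 at D5, and mitotic members dominated 30 and 61.

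The share of nuclei with 4 or more list UMIs depended on depth. As deposited it was 37.8% at D0 (exact interval 35.5% to 40.1%) and 39.1% at D5 (37.3% to 40.9%) in cDC1-like nuclei, whose median depth was 2134 and 3079 UMIs, and 19.9% and 19.6% in cDC2-like nuclei, at 1888 and 2705 UMIs. After each nucleus was thinned to 1000 UMIs the cDC1-like share was 18.4% at D0 (16.6% to 20.3%) and 14.4% at D5 (13.1% to 15.7%), a difference of -4.02 percentage points (-6.31 to -1.78). The cDC2-like share was 8.92% (7.65% to 10.3%) and 4.71% (4.16% to 5.31%), a difference of -4.21 points (-5.72 to -2.81). After this thinning both classes had fewer such nuclei at D5. The shares as deposited differed by 1.30 and -0.38 points, with intervals that include 0. Thinning, like CPM, sets list UMIs against all UMIs, so it keeps the shift of all genes, with median log2 ratios of -0.23 and -0.16. The part of that shift in these shares was not tested. Leaving doublets in turned the direction of the cDC2-like difference as deposited, and clustering at resolution 0.5 that of the cDC1-like difference. Thinning to 2000 UMIs gave -15.8 and -14.6 points, over fewer nuclei. In cDC2-like nuclei the difference as deposited was below 0 at higher limits, with -2.18 points for 6 or more list UMIs (-3.94 to -0.51) and -2.43 for 10 or more (-3.85 to -1.10), and for 4 or more mitotic UMIs, with -2.73 (-4.25 to -1.30). For 4 or more S phase UMIs it was -1.07 (-2.83 to 0.61). The cDC1-like differences as deposited had intervals that include 0. They were -0.36 (-2.59 to 1.82) for 10 or more list UMIs, 0.007 (-2.27 to 2.24) for 4 or more mitotic UMIs and -0.05 (-2.68 to 2.53) for 4 or more S phase UMIs.

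The classes that should hold few dividing cells give the background of this share. It was 8.18% and 7.41% as deposited in nonclassical monocyte-like nuclei (median 1169 and 1366 UMIs) and 2.73% and 1.59% after thinning. In pDC-like nuclei (median 1540 and 1742 UMIs) it was 8.37% and 7.57%, and 1.83% and 1.07% after thinning. This background was not uniform. After thinning, the pDC-like cluster led by Srl and Zdhhc19 had 3.47% of 519 nuclei at D0 and 0.743% of 269 at D5. The one led by Blk and Dll4 had 1.37% of 1824 and 1.12% of 1793. Neutrophil-like nuclei numbered 5 at D0 and 92 at D5, and 3.26% of the latter reached the count after thinning (0.678% to 9.23%). The macrophage-like shares were 2.21% (1.29% to 3.52%) and 1.72% (1.08% to 2.60%) after thinning, which overlapped the pDC-like shares. Without thinning, 1.82% (1.0001% to 3.04%) and 1.72% (1.08% to 2.60%) of macrophage-like nuclei held 10 or more list UMIs, against 0.213% (0.0693% to 0.497%) and 0.388% (0.168% to 0.763%) of pDC-like nuclei, with intervals apart at both days but at a greater depth. The Ccr7+ DC-like shares were 1.99% (0.735% to 4.29%) and 2.68% (1.81% to 3.799%) after thinning, the latter above the pDC-like interval and within the nonclassical monocyte-like interval. The preDC-like share was 6.76% at D0 (3.75% to 11.1%) and 2.00% at D5 (1.31% to 2.91%). NK cell-like nuclei had 4.88% (3.83% to 6.11%) and 4.25% (3.14% to 5.61%) and T cell-like nuclei 5.51% (3.35% to 8.47%) and 7.26% (4.99% to 10.1%). The NK cell-like and T cell-like shares were above the pDC-like intervals of 1.33% to 2.46% at D0 and 0.670% to 1.61% at D5, but the nonclassical monocyte-like intervals reached 7.76% and 4.57%, and only the T cell-like share at D5 was above them. As deposited the NK cell-like share was 6.53 points higher at D5 (3.72 to 9.39), but the class's list level in CPM did not differ beyond its interval, and no change is read from that share.

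**Figure D2:**
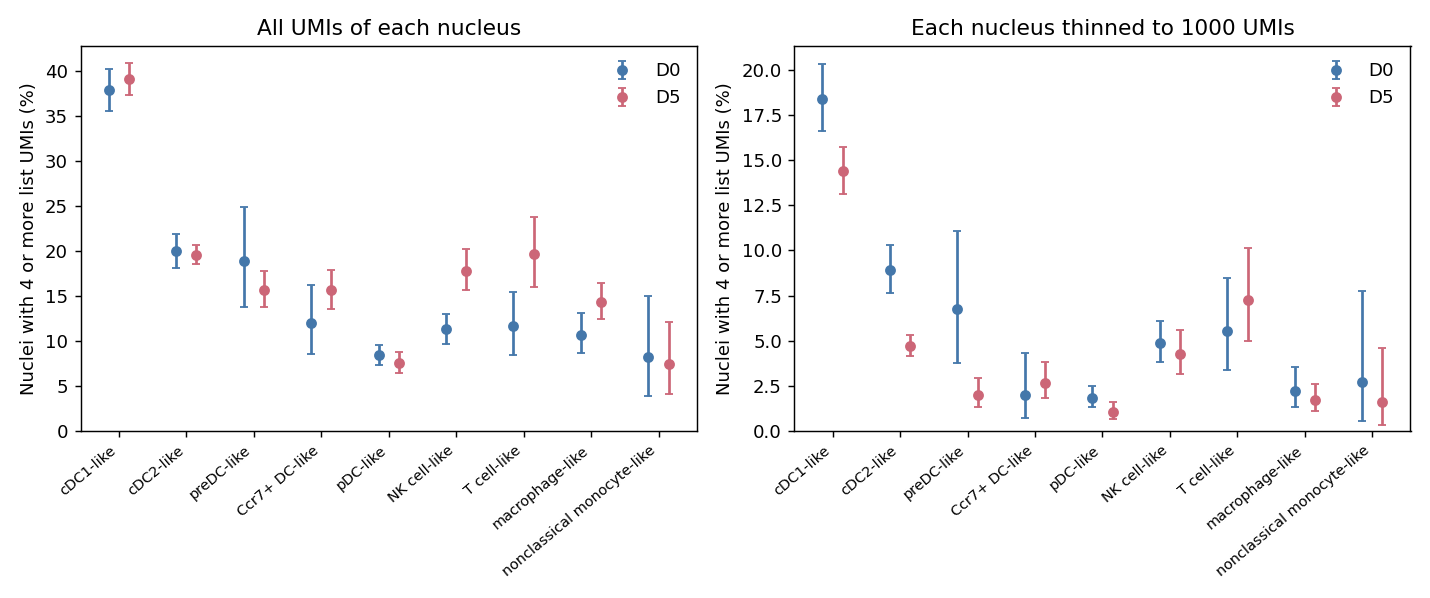
Percent of nuclei with 4 or more UMIs of the 49 genes (vertical axis) by class (horizontal axis), from all UMIs (left) and after thinning each nucleus to 1000 UMIs (right); blue is D0, red is D5, bars are exact 95% binomial intervals, and the vertical scales differ. In cDC1-like nuclei the points are 37.8% and 39.1% on the left and 18.4% and 14.4% on the right.

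**Figure D3:**
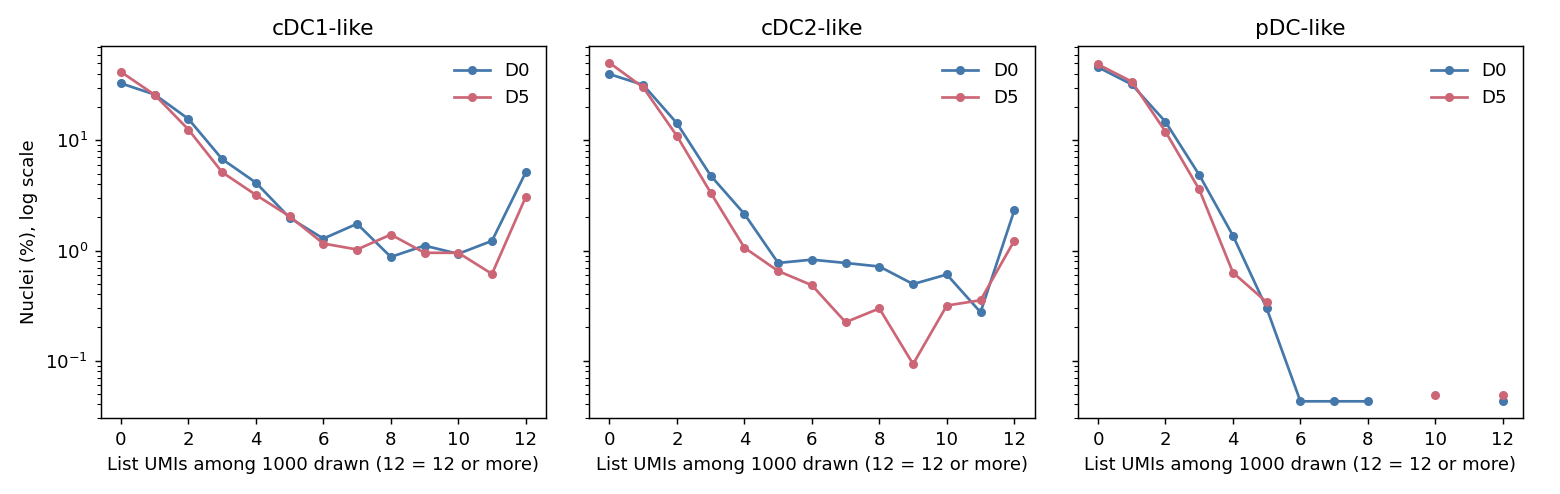
Number of list UMIs among 1000 drawn from each nucleus (horizontal axis, the last point being 12 or more) against the percent of nuclei (vertical axis, log scale) in cDC1-like, cDC2-like and pDC-like nuclei, blue for D0 and red for D5; counts with no nucleus are left out. The cDC1-like and cDC2-like curves end in a tail of 5.13% and 2.31% of nuclei at D0 and 3.06% and 1.23% at D5, against 0.0427% and 0.0485% in pDC-like nuclei.

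Within cDC2-like nuclei the share differed between clusters. The cluster led by Abca9 and Hpgd had 11.5% at D0 and 7.51% at D5 after thinning, and the cluster led by Tnfsf9 and Tnip3 had 7.51% and 2.97%. The cluster led by Ccl17 had 8 nuclei at D0, none of which reached the count, and 208 at D5 with 3.37%. A cluster left unnamed, led by Dab2 and Ifitm1, had 315 nuclei and 14.9% at D0 and 2843 nuclei and 5.35% at D5. Its S phase sum was 1216 CPM at D0 and 707 at D5, above that of the cDC2-like class at both days. In another unnamed cluster, led by Adgrl3 and Frmd5, the share was close at the 2 days. It was 6.79% of 383 nuclei at D0 and 6.35% of 441 at D5 after thinning, and 20.6% and 21.5% as deposited. A cluster led by Adgrl3 was named cDC2-like at resolutions 0.5 and 2.

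Both lists were lower at D5 than at D0 in the 2 conventional classes. In cDC1-like nuclei the log2 ratio of D5 over D0 was -0.41 (-0.46 to -0.37) for the S phase sum and -0.52 (-0.57 to -0.48) for the mitotic sum. In cDC2-like nuclei it was -0.53 (-0.59 to -0.48) and -0.70 (-0.76 to -0.64), and in preDC-like nuclei -0.64 (-0.82 to -0.44) and -1.11 (-1.27 to -0.93). Without Smc4 the mitotic ratio of preDC-like nuclei was -1.03 (-1.23 to -0.82). The classes held different mixes of finer clusters by day. At resolution 2 a cDC1-like cluster led by Snx22 had 321 nuclei at D0 and 1739 at D5 and another led by Ppef2 had 558 and 220, while a cDC2-like cluster led by Tnfsf9 and Fxyd7 had 234 and 2145 and another led by Mt2 had 873 and 619. The part of these mixes in the ratios was not tested. These ratios stand on a shifted background, since the median of all genes tested was -0.23 in cDC1-like and -0.16 in cDC2-like nuclei, and TMM scaling, which centres on the bulk of genes, moved the sums of cDC1-like nuclei to -0.089 and -0.20 and those of cDC2-like nuclei to -0.27 and -0.44. All members had 20 or more UMIs in both classes. Of the 49 members, 46 were lower at D5 in cDC1-like nuclei (93.9%, against 70.6% of all genes tested) and 48 in cDC2-like nuclei (98.0%, against 64.3%). At least 2-fold lower were 5 members in cDC1-like nuclei (Neil3, Ccna2, Aspm, Anln and Ect2, 10.2%), against 8.5% of all 11970 genes tested there, and 6 in cDC2-like nuclei (Neil3, Kif4, Cdk1, Anln, Ect2 and Cenpp, 12.2%), against 7.96% of 12419 genes. None was at least 2-fold higher, against 0.936% and 1.72% of all genes. The count over all members is thus near the background in both classes. Taken apart, at least 2-fold lower were 1 of 20 S phase members (5%) in each class, and 4 (13.8%) and 5 (17.2%) of 29 mitotic members. The count also changed with TMM scaling in both classes and without doublet removal in cDC1-like nuclei, as given at the end. Nuclei with 2 or more of 22 lymphoid markers made up 43.1% and 36.2% of cDC1-like and 41.8% and 31.4% of cDC2-like nuclei at D0 and D5. Without them the S phase and mitotic ratios were -0.43 and -0.52 in cDC1-like and -0.46 and -0.51 in cDC2-like nuclei. A lower share of dividing nuclei and less list RNA in each dividing nucleus cannot be told apart in these sums.

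**Figure D4:**
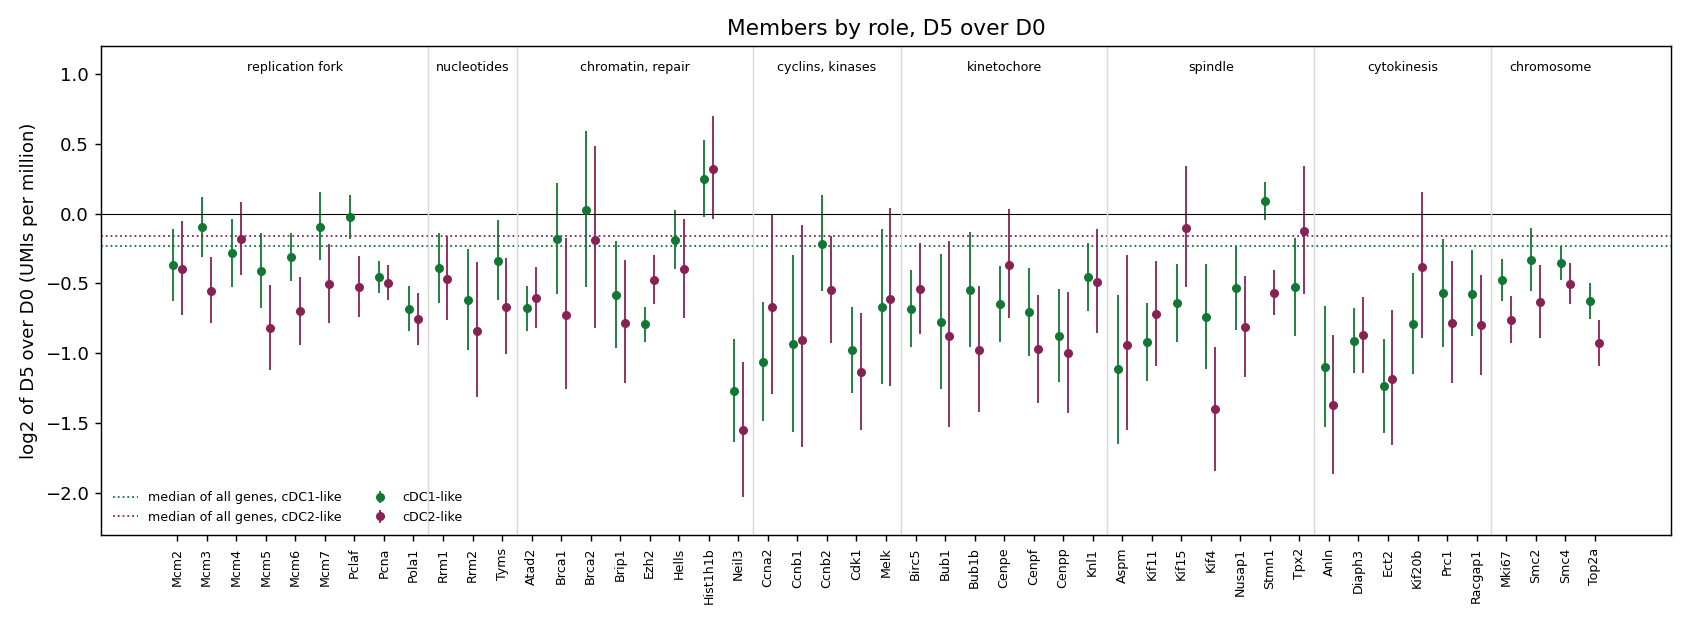
Log2 ratio of D5 over D0 (vertical axis) of the CPM of each member (horizontal axis, grouped by role) in cDC1-like (green) and cDC2-like (purple) nuclei; bars are 95% counting intervals and dotted lines the median of all genes tested in each class, -0.23 and -0.16. Members lie below 0 except Hist1h1b in both classes and Brca2 and Stmn1 in cDC1-like nuclei.

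Of the replication fork members, Pcna, the sliding clamp, was the most abundant by UMIs, at 231 CPM at D0 and 169 at D5 in cDC1-like nuclei (log2 -0.45, -0.57 to -0.34) and at 187 and 132 in cDC2-like nuclei (-0.50, -0.62 to -0.37). Pola1 was at 129 and 80.6 in cDC1-like nuclei (-0.68, -0.84 to -0.52) and at 88.4 and 52.4 in cDC2-like nuclei (-0.75, -0.94 to -0.57). Pclaf, the PCNA clamp-associated factor, differed by class. It was at 114 and 112 in cDC1-like nuclei, where the interval of the ratio included 0 (-0.18 to 0.13), and at 62.5 and 43.4 in cDC2-like nuclei (-0.53, -0.74 to -0.31). The helicase subunit Mcm7 was at 50.1 and 47.0 in cDC1-like nuclei (-0.09, -0.33 to 0.15), while Mcm4 was at 41.2 and 36.2 (-0.18, -0.44 to 0.08) and Mcm2 at 26.1 and 19.9 (-0.39, -0.72 to -0.05) in cDC2-like nuclei. The 9 fork genes together gave -0.33 (-0.39 to -0.27) in cDC1-like and -0.55 (-0.62 to -0.47) in cDC2-like nuclei. Rrm1, Rrm2 and Tyms, which supply deoxynucleotides, gave -0.42 (-0.58 to -0.25) and -0.60 (-0.80 to -0.40). Rrm2, the small subunit of the reductase, was at 14.0 CPM at D0 and 7.83 at D5 in cDC2-like nuclei.

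Among the chromatin and repair members of S phase, Neil3, a DNA glycosylase that acts at replication forks, had the smallest ratio of the S phase list in both classes. It was at 30.1 and 12.5 CPM in cDC1-like nuclei (-1.27, -1.64 to -0.89) and at 16.6 and 5.68 in cDC2-like nuclei (-1.55, -2.03 to -1.06). Ezh2, the methyltransferase of the Polycomb repressive complex, was at 218 and 126 in cDC1-like nuclei (-0.79, -0.92 to -0.67) and at 95.5 and 68.7 in cDC2-like nuclei (-0.47, -0.65 to -0.30). Hist1h1b, a linker histone gene whose transcript is made in S phase, was at 37.0 and 43.9 in cDC1-like nuclei (0.25, -0.02 to 0.53) and at 19.8 and 24.7 in cDC2-like nuclei (0.32, -0.04 to 0.70). Its interval included 0 in both classes, and it was at 5.87 and 12.3 in pDC-like nuclei (1.07, 0.32 to 1.85). Brca2, of homologous recombination, was at 9.72 and 9.88 in cDC1-like nuclei (0.02, -0.52 to 0.59) and at 7.12 and 6.25 in cDC2-like nuclei (-0.19, -0.82 to 0.48).

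Of the mitotic chromosome members, Top2a was at 200 CPM at D0 and 130 at D5 in cDC1-like nuclei (-0.63, -0.75 to -0.50) and at 115 and 60.7 in cDC2-like nuclei (-0.93, -1.09 to -0.76). Mki67, which coats mitotic chromosomes, was at 137 and 98.5 in cDC1-like nuclei (-0.47, -0.63 to -0.32) and at 106 and 62.8 in cDC2-like nuclei (-0.76, -0.93 to -0.59). Of the condensin subunits in cDC1-like nuclei, Smc2 was at 59.3 and 47.2 (-0.33, -0.56 to -0.10) and Smc4 at 207 and 162 (-0.36, -0.48 to -0.23). The 5 cyclin and kinase members gave -0.74 (-0.91 to -0.56) in cDC1-like and -0.77 (-0.99 to -0.54) in cDC2-like nuclei. Cdk1 was at 39.9 and 20.3 in cDC1-like nuclei (-0.98, -1.28 to -0.67), and Ccnb2, a B-type cyclin, at 25.8 and 22.2 (-0.21, -0.56 to 0.13).

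The lowest ratio of a mitotic role was that of cytokinesis, with -0.86 (-0.99 to -0.73) for its 6 genes in cDC1-like and -0.88 (-1.03 to -0.72) in cDC2-like nuclei. Ect2, which activates RhoA at the division plane, was at 36.0 and 15.3 CPM in cDC1-like nuclei (-1.24, -1.57 to -0.90), and Anln, the scaffold anillin, at 15.04 and 5.81 in cDC2-like nuclei (-1.37, -1.87 to -0.87). Kif20b, a kinesin of late mitosis, was at 11.1 and 8.52 in cDC2-like nuclei (-0.38, -0.89 to 0.16). Spindle members were spread. Kif4, a chromosome-bound kinesin, was at 19.0 and 7.20 in cDC2-like nuclei (-1.40, -1.84 to -0.95), and Aspm, of the spindle poles, at 14.3 and 6.62 in cDC1-like nuclei (-1.11, -1.65 to -0.58). Kif15 was at 15.04 and 14.0 (-0.10, -0.53 to 0.34) and Tpx2, which recruits Aurora A to the spindle, at 13.7 and 12.6 (-0.13, -0.57 to 0.34) in cDC2-like nuclei. Stmn1, a destabilizer of microtubules, was at 149 and 158 in cDC1-like nuclei (0.09, -0.05 to 0.22) and at 113 and 76.4 in cDC2-like nuclei (-0.57, -0.73 to -0.40). The kinetochore members gave -0.64 (-0.76 to -0.53) and -0.69 (-0.84 to -0.54), and Cenpe, a kinetochore motor, was at 19.3 and 14.96 in cDC2-like nuclei (-0.36, -0.75 to 0.03).

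The T cell-like cluster raised 11 of 12 T cell markers and also 9 of 10 NK cell markers, and its leading genes included Cd3e, the gamma chain genes Tcrg-C1 and Trgv2 and the NK receptor genes Klra7, Klra6 and Klra1, so its name does not separate T cells from NK cells. In these nuclei the lists were higher at D5, by 0.45 (0.28 to 0.62) for S phase and 0.50 (0.32 to 0.68) for mitosis. Pclaf was at 19.7 CPM at D0 (10 UMIs) and 86.5 at D5 (75 UMIs), and Top2a at 51.2 (26 UMIs) and 104 (90 UMIs). Cdk1 was at 15.8 (8 UMIs) and 35.8 (31 UMIs). Pcna was at 260 and 204, a ratio of -0.35 (-0.68 to -0.01). Of 33 other S phase genes with enough UMIs 9 were lower at D5, with a median of 0.29, but of 21 other mitotic genes 13 were lower, with a median of -0.22, against 61.4% of all genes tested and their median of -0.15. The class held 345 and 427 nuclei, and 10 nuclei at D0 and 20 at D5 carried 34.4% and 55.5% of its list UMIs. Nuclei with 2 or more of 16 dendritic markers made up 18.0% of the class at D0 and 25.8% at D5. Without them the ratios were 0.26 (0.05 to 0.46) and 0.20 (-0.0023 to 0.41). In Ccr7+ DC-like nuclei, the mitotic sum was higher at D5 by 0.41 (0.19 to 0.64), with 3 of 301 nuclei at 10 or more list UMIs at D0 and 25 of 1121 at D5, a difference in share of 1.23 points (-0.81 to 2.54). Its S phase sum gave -0.09 (-0.26 to 0.08). Without doublet removal the mitotic ratio was -0.12. In NK cell-like nuclei neither sum differed beyond its interval, with 0.03 (-0.07 to 0.13) and -0.01 (-0.11 to 0.10).

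Members differed in how far they stood above the level in pDC-like nuclei. At D0 the median log2 ratio of cDC1-like over pDC-like nuclei was 2.06 over the 20 S phase members and 3.02 over the 29 mitotic members, and at D5 it was 1.77 and 1.99. At D0, 11 S phase members and 23 mitotic members were at least 4-fold higher in cDC1-like nuclei, against 6.25% of all 11771 genes tested, and at D5 the counts were 7 and 14, against 4.89% of 12014 genes. Bub1, a checkpoint kinase, was at 0.511 CPM in pDC-like nuclei at D0, which is 2 UMIs, and at 15.6 in cDC1-like nuclei (log2 4.93, 3.02 to 8.01). At the other end, Smc4 was at 188 in pDC-like and 207 in cDC1-like nuclei (0.14), and Racgap1, of the central spindle, at 34.0 and 35.0 (0.04). Smc4 alone made up 20.6% of the list's UMIs in pDC-like nuclei against 7.26% in cDC1-like nuclei. Pcna made up 17.7% in macrophage-like and 7.75% in cDC1-like nuclei, and Ezh2 11.9% in Ccr7+ DC-like and 6.35% in cDC1-like nuclei. These 3 genes were the members that passed 10% of the list in any class.

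The promoters of the members differed far less between days and classes than their RNA. Fragments were counted in peaks shared by both libraries and within 2 kb of the annotated start interval of each gene. They were scaled to 1000000 fragments in all shared peaks (FPM), and all 49 members had at least 1 such peak. Diaph3 had 15 such peaks and Ezh2 had 6, so not all of their peaks need lie at a promoter. The 34 peaks of the S phase members held 936 FPM at D0 (915 to 957) and 948 at D5 (930 to 967) in cDC1-like nuclei, and 964 and 972 in cDC2-like nuclei. The 51 peaks of the mitotic members held 1344 and 1338, and 1379 and 1365. The log2 ratio of D5 over D0 was 0.02 (-0.02 to 0.06) and -0.01 (-0.04 to 0.03) in cDC1-like nuclei, and 0.01 (-0.03 to 0.05) and -0.01 (-0.05 to 0.02) in cDC2-like nuclei, where the RNA of the same genes was lower. No member's promoter differed at least 2-fold between days in either class, against 0.969% of 100164 shared peaks at least 2-fold higher and 3.97% at least 2-fold lower in cDC1-like nuclei, and 1.84% and 4.95% of 96567 in cDC2-like nuclei. These shares cover all shared peaks with 20 or more fragments, wherever they lie. Promoters of other genes were not counted apart, so the shares do not show whether the members differ from other promoters. The interval of the ratio lay above 0 for 4 members and below 0 for 5 in cDC1-like nuclei, and for 3 and 8 in cDC2-like nuclei. Those above 0 were Pcna, Mcm4 and Brca1 in both classes and Top2a in cDC1-like nuclei. Pcna and Top2a, whose RNA was lower at D5, had promoter ratios of 0.22 (0.06 to 0.39) and 0.22 (0.02 to 0.43) in cDC1-like nuclei. In cDC1-like nuclei the Mcm6 promoter was at 49.6 and 39.0 FPM (-0.35, -0.55 to -0.15), and Ccnb2 had the lowest ratio (-0.41, -0.70 to -0.12). In cDC2-like nuclei Tyms had the lowest (-0.83, -1.35 to -0.30). Neil3 and Cdk1, whose RNA was at least 2-fold lower there, had promoter ratios of -0.52 (-0.88 to -0.16) and -0.42 (-0.67 to -0.17). Kif4, Anln, Ect2 and Cenpp, whose RNA was also at least 2-fold lower there, had promoter ratios of -0.12, -0.19, 0.05 and 0.11. Each of their intervals included 0. In preDC-like nuclei, whose S phase RNA was lower at D5, the S phase peaks held 820 and 904 (0.14, 0.03 to 0.26). Counted per nucleus, the sums were lower at D5, as were the fragments per nucleus over all peaks.

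Between cDC1-like and pDC-like nuclei the promoters also differed far less than the RNA, and other classes did not follow the order of their RNA. At D0 the S phase peaks held 1082 FPM (1056 to 1108) in NK cell-like and 1134 (1077 to 1192) in T cell-like nuclei, above the 936 of cDC1-like nuclei. The mitotic peaks held 1493 and 1562 in these 2 classes and 1515 (1392 to 1644) in nonclassical monocyte-like nuclei, against 1344 in cDC1-like nuclei. In pDC-like nuclei the S phase peaks held 831 FPM (814 to 849) at D0 and 856 (834 to 877) at D5. The mitotic peaks there held 1257 (1236 to 1279) and 1257 (1231 to 1283). These intervals lay below those of cDC1-like nuclei at both days, which is the direction of the RNA. Over the 49 members the median log2 ratio of cDC1-like over pDC-like promoters was 0.16 at D0 and 0.12 at D5. No promoter was 2-fold apart at D0, where 26.3% of 107449 shared peaks were at least 2-fold higher in cDC1-like nuclei. At D5 the promoters of 3 members were (Pclaf, Cdk1 and Tyms), against 28.7% of 101423 peaks. These shares, too, cover all shared peaks and not promoters alone. Pclaf was the farthest apart at D0, with 23.0 FPM in cDC1-like and 12.1 in pDC-like nuclei (log2 0.93, 0.59 to 1.26), followed by Cdk1 with 36.4 and 21.1 (0.78, 0.53 to 1.04). Top2a was at 40.8 and 44.8 (-0.14, -0.34 to 0.07) and Kif11 at 40.6 and 41.7 (-0.04, -0.25 to 0.17), although their RNA stood 3.12 and 3.43 log2 units higher in cDC1-like nuclei. Mcm6 was at 49.6 and 45.1 (0.14, -0.06 to 0.33) and Hells at 27.4 and 20.7 (0.40, 0.12 to 0.67).

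**Figure D5:**
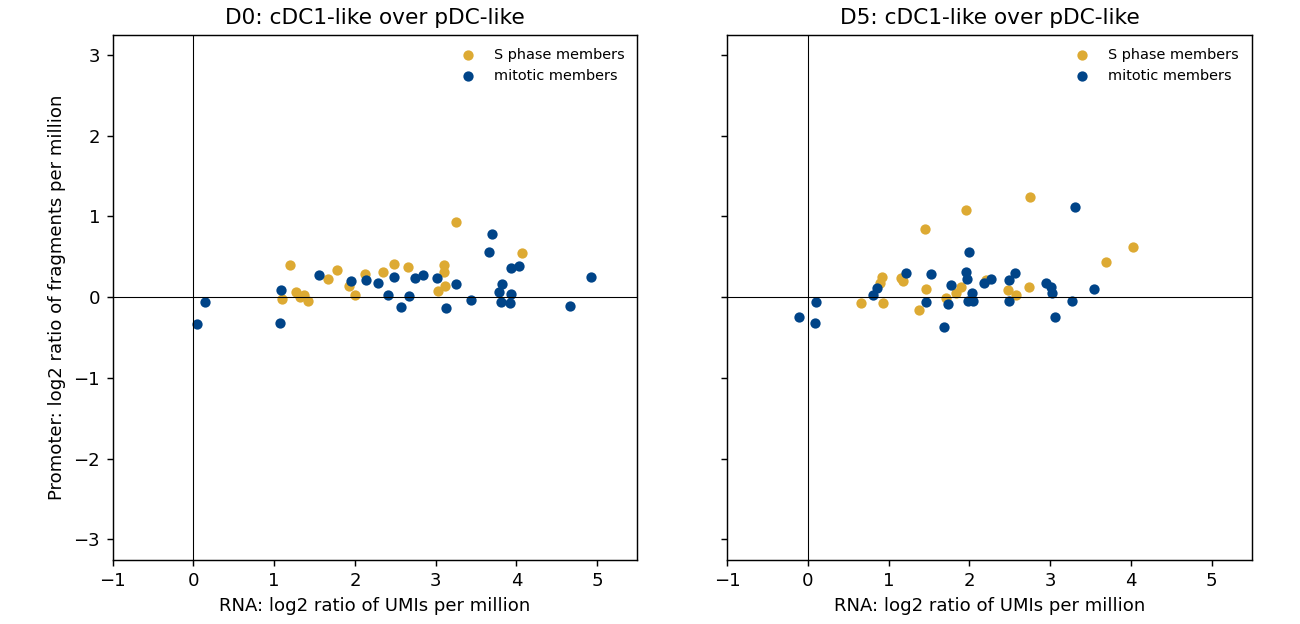
Log2 ratio of cDC1-like over pDC-like nuclei for each member's RNA (horizontal axis, CPM) and its promoter (vertical axis, FPM) at D0 (left) and D5 (right), on equal scales; yellow points are the 20 S phase members and blue points the 29 mitotic members. RNA ratios reach 4.93 at D0, while no promoter ratio at D0 is above 0.93.

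Within a class, nuclei with 4 or more list UMIs were set against nuclei with none. In cDC1-like nuclei the S phase peaks held 927 FPM in the nuclei with none and 968 in those with 4 or more at D0 (log2 0.06, -0.04 to 0.16), and 938 and 962 at D5 (0.04, -0.06 to 0.13). The mitotic peaks held 1327 and 1386 (0.06, -0.02 to 0.15) and 1295 and 1363 (0.07, -0.01 to 0.16). In cDC2-like nuclei all 4 intervals included 0. Nuclei with 10 or more list UMIs were also the richest in both layers. At D0 the cDC1-like ones had a median of 3323 UMIs and 6154 fragments, against 1806 and 4470 in nuclei with none, and at D5 the medians were 4112 and 4231 against 2635 and 3659. In these nuclei the S phase peaks stood 0.12 (0.01 to 0.23) at D0 and 0.16 (0.05 to 0.26) at D5, and the mitotic peaks 0.12 (0.03 to 0.22) and 0.11 (0.03 to 0.20), above those of nuclei with none, on the log2 scale of FPM. In cDC2-like nuclei the intervals of this contrast included 0, except for the mitotic peaks at D5 (0.11, 0.03 to 0.19). In pDC-like nuclei, where 8 nuclei at D5 held 10 or more, the S phase peaks stood 0.52 (0.18 to 0.85) higher in them at D5 and 0.24 (-0.21 to 0.65) in the 5 such nuclei of D0. The 8 nuclei had a median of 5478 UMIs and 9562 fragments, against 1682 and 3922 in pDC-like nuclei with none.

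Other cell cycle genes, which are not members, were also mostly lower at D5 in the conventional classes. Of 62 other S phase genes, 55 (88.7%) were lower at D5 in cDC1-like nuclei and 50 (80.6%) in cDC2-like nuclei, with medians of -0.32 and -0.40, against 70.6% and 64.3% of all genes lower and medians of -0.23 and -0.16, and 1 (1.61%) and 4 (6.45%) were at least 2-fold lower, below the shares of all genes. Of other mitotic genes, 88 of 94 tested (93.6%) were lower in cDC1-like and 79 of 90 (87.8%) in cDC2-like nuclei, with medians of -0.57 and -0.67, and 16 (17.0%) and 22 (24.4%) were at least 2-fold lower, above the shares of 8.5% and 7.96% of all genes. In cDC1-like nuclei Kif14, a kinesin of the midbody, was at 10.5 and 3.67 CPM (-1.51, -2.19 to -0.84), and in cDC2-like nuclei Cep55, of abscission, was at 17.9 and 5.56 (-1.69, -2.16 to -1.21). Iqgap3, of cytokinesis, was at 10.6 and 3.54 (-1.58, -2.19 to -0.96) and Cdca2, a phosphatase partner on mitotic chromosomes, at 8.71 and 2.90 (-1.58, -2.26 to -0.89) there. Pif1 and Gtse1 had ratios of -1.76 (-2.96 to -0.61) and -1.63 (-2.98 to -0.33) in cDC1-like nuclei, each from 10 to 17 UMIs per day. The S phase genes Rmi2, Ticrr and Fancd2 were at 7.78 and 2.95, 11.7 and 5.91, and 11.2 and 5.60 CPM in cDC1-like nuclei. In cDC2-like nuclei the origin licensing factor Cdc6 was at 6.86 and 3.22 and Clspn, of the replication checkpoint, at 14.5 and 7.01. At the other end of these lists most intervals included 0, as for Ccne1 (0.75, -0.09 to 1.67), which encodes cyclin E1, Ung (0.48, -0.37 to 1.42), Cenpm (0.27, -0.30 to 0.88), Oip5 (0.26, -1.04 to 1.74) and Cks1b (0.15, -0.08 to 0.38) in cDC1-like nuclei and Gins3 (0.58, -0.11 to 1.34), Cdkn3 (0.46, -0.64 to 1.75) and Oip5 (0.40, -1.16 to 2.39) in cDC2-like nuclei. Dut, which clears dUTP, was at 71.7 and 79.7 in cDC1-like nuclei (0.15, -0.04 to 0.35). Gins4, of the replicative helicase, was at 9.76 and 17.5 in cDC2-like nuclei (0.84, 0.34 to 1.38), and Lmnb1, a nuclear lamin that is not bound to mitosis, was at 200 and 270 in cDC2-like nuclei (0.43, 0.32 to 0.55).

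Genes that act before S phase went the other way in part. Ccnd3, a D-type cyclin, was higher at D5, at 173 and 226 CPM in cDC1-like nuclei (0.39, 0.27 to 0.51) and at 225 and 327 in cDC2-like nuclei (0.54, 0.44 to 0.65), and its partner kinase Cdk4 was at 59.8 and 76.6 (0.36, 0.15 to 0.57) and at 49.1 and 62.5 (0.35, 0.12 to 0.58). The inhibitor Cdkn2d, p19-INK4d, was also higher, at 38.2 and 60.4 in cDC1-like nuclei (0.66, 0.41 to 0.93) and at 114 and 161 in cDC2-like nuclei (0.50, 0.35 to 0.65). Another inhibitor, Cdkn2c, was lower in cDC1-like nuclei, at 18.2 and 11.2 (-0.70, -1.14 to -0.26). E2f2 was at 34.8 and 23.3 in cDC1-like nuclei (-0.58, -0.88 to -0.26), Lin9, of the DREAM and MuvB complexes, at 23.3 and 15.7 there (-0.57, -0.95 to -0.19), E2f1 at 7.65 and 3.47 in cDC2-like nuclei (-1.14, -1.81 to -0.44), and Mybl2, of the complex that activates mitotic genes, at 5.81 and 2.59 there (-1.17, -1.95 to -0.35). Btg1, an antiproliferative gene, was at 2065 and 1054 in cDC2-like nuclei (-0.97, -1.01 to -0.93). Of the 10 Rb and E2F genes 8 were lower at D5 in each class, near the 70.6% and 64.3% of all genes, and of the 6 D-type cyclins and G1 kinases 1 was lower in cDC1-like and 3 in cDC2-like nuclei.

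Genes outside all these lists were ranked by how much higher they stood in nuclei with 4 or more list UMIs than in nuclei with none at both days, as a description. In cDC1-like nuclei Stil, of centriole duplication, led with 1 UMI in the nuclei with none and 76 in the others at D0 (log2 ratio of CPM 4.32, 1.80 to 9.64) and 1 and 100 at D5 (4.52, 2.01 to 9.84), followed by Bard1, the partner of Brca1, Asf1b, a histone chaperone of S phase, Rad18, a ubiquitin ligase at stalled forks, BC055324, Zgrf1, Efcab11 and Foxd2os. In cDC2-like nuclei Asf1b led with 2.83 and 50.7 at D0 and 2.26 and 21.4 at D5, followed by Bard1, Zgrf1, Slc43a3, Pkmyt1, a kinase that restrains Cdk1, Dtl, which marks proteins for destruction in S phase, the histone gene Hist1h2ab and Rad51b. Apart from Rad51b, the nuclei with none held 1 to 14 UMIs of each of these genes per day, so the size of each ratio is uncertain.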

How the data were processed

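Per the labels and the study's methods, nuclei of sorted liver CD45+ CD64- CD11c+ cells were profiled by 10x Multiome, with 1 RNA and 1 ATAC library per day. The authors deposited counts of UMIs per gene, and counts of transposase cut sites per peak called in each library. Each pair of cut sites was counted here as 1 fragment. The submitters' processing notes name Cell Ranger ARC 2.0.2 and the build mm10, while the RNA file headers name Cell Ranger 6.0.2. RNA and ATAC nuclei were joined by identical gene counts where the joint matrix carried no barcodes. The D0 library held 16260 barcodes and 44496348 UMIs, and the D5 library 27873 and 94374499. The methods say that male mice were used for scRNA-seq.

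Nuclei under 1000 UMIs or over 10% mitochondrial UMIs were left out. Those with a doublet score over 0.2 (computed in scanpy 1.11.5, which holds Scrublet) were removed, 23.1% at D0 and 25.5% at D5. Scrublet's own threshold marked 42.0% and 9.99%. Clustering (Leiden, resolution 1) used 30 components of 2000 variable genes, kept after 19 listed cell cycle, mitochondrial or list-correlated genes were dropped. Cell cycle genes outside the lists and not correlated with them could remain. To be named, a cluster needed 3 or more markers 2-fold above the mean of the other clusters of 50 or more nuclei. That threshold was set with the clusters in view. Such a cluster was still left unnamed if it was smaller than that, was shallow, or had markers or leading genes of another class. The preDC-like name was given apart, to a cluster with few markers of its best list (cDC2 or classical monocyte) raised and 3 or more preDC markers above cDC2-like nuclei by a smaller fold. Both pDC-like clusters also met that marker comparison, as did the NK cell-like, macrophage-like, nonclassical monocyte-like and neutrophil-like clusters and several unnamed ones. The comparison alone thus does not set the preDC-like cluster apart. UMIs were summed per class and day and divided by the class total. Sums carry exact Poisson intervals, ratios conditional binomial intervals, shares exact Clopper-Pearson intervals and share differences Newcombe intervals. Genes with 20 or more UMIs over both days were tested against a 2-fold limit, with no p-value. Ratios and intervals were checked on simulated counts. Promoters were RefSeq windows for 42 of the 49 members.

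Named members were, per list in each conventional class, the 4 of highest level, the 4 with the largest and the 2 with the smallest ratio, and those over 10% of the list's UMIs in any class. Of other cell cycle genes the 3 with the largest and the 3 with the smallest ratio per list were named, except 1 that is not reported here, and outside all lists up to 8 genes by their ratio between nuclei with 4 or more and no list UMIs. Bub1, Racgap1 and the genes named in T cell-like nuclei or for their promoters were chosen after their values were seen. The members and lists were chosen with earlier results of these data known. Alternatives were TMM scaling (computed after edgeR's formula), other depths, thinning, clusterings and filters.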

Additional observations from a re-analysis of the deposited data

Results flagged for a closer look

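Between D0 and D5 both lists in T cell-like nuclei and the mitotic list in Ccr7+ DC-like nuclei were higher, while the intervals lay below 0 in several other classes. In T cell-like nuclei the log2 ratio of D5 over D0 was 0.45 for the S phase members, against falls in cDC1-like, cDC2-like, preDC-like and macrophage-like nuclei, and 0.50 for the mitotic members, against falls in those classes and in pDC-like nuclei. With TMM factors the macrophage-like S phase ratio and the pDC-like mitotic ratio were 0.047 and 0.0065, so these falls depend on the scaling. Without nuclei holding dendritic markers the T cell-like ratios were 0.26 (0.05 to 0.46) and 0.20 (-0.0023 to 0.41). In Ccr7+ DC-like nuclei the ratio of the mitotic members was 0.41, and -0.12 without doublet removal, and Stmn1, which destabilizes microtubules, was at 33.9 and 55.3 CPM. With 1 library per day the difference between classes was not tested. In T cell-like and Ccr7+ DC-like nuclei, 25 or fewer nuclei at either day held 10 or more list UMIs.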

How the results depend on the processing

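No paired analysis was possible because each group has 1 sample, so no library or replicate could be left out. The share of nuclei with 4 or more list UMIs depended on thinning and on which nuclei were kept: its difference of D5 minus D0 in cDC1-like and cDC2-like nuclei was -4.02 and -4.21 percentage points after thinning to 1000 UMIs, -15.8 and -14.6 after thinning to 2000, and -11.5 and -13.0 over nuclei with 2000 UMIs or more. Thinning to 2000 also left out shallower nuclei unevenly, 708 of 1715 cDC1-like and 1025 of 1816 cDC2-like nuclei at D0 against 214 of 2937 and 733 of 5374 at D5. It was 4.97 and 2.48 without doublet removal, and -4.61 in cDC1-like nuclei at clustering resolution 0.5. In NK cell-like nuclei, where it was 6.53, it became -0.631 after thinning to 1000 and -8.28 (-17.9 to 0.916) over the 142 nuclei of D0 and 337 of D5 that could be thinned to 2000, -1.70 without doublet removal and -8.83 with the 2000 UMI minimum. In macrophage-like nuclei, where it was 3.66, it became -0.489, -2.50 and -1.34, and -0.0988 for 10 or more list UMIs, a limit chosen after seeing the data. In T cell-like nuclei it became -4.73 with the 2000 UMI minimum. The log2 ratios of the S phase and mitotic sums stayed below 0 in cDC1-like and cDC2-like nuclei under each alternative run. In cDC1-like nuclei they were -0.089 and -0.20 with TMM factors, -0.53 and -0.66 without doublet removal, -0.64 and -0.82 with the 2000 UMI minimum, -0.24 and -0.35 at resolution 0.5 and -0.29 and -0.34 at resolution 2. In cDC2-like nuclei they were -0.27 and -0.44 with TMM factors, -0.47 and -0.77 without doublet removal, -0.88 and -1.17 with the minimum, and -0.46 and -0.51 without nuclei holding markers of 2 cell families. TMM factors also turned the mitotic ratio of pDC-like nuclei to 0.0065 and the S phase ratio of macrophage-like nuclei to 0.047, and leaving doublets in turned the mitotic ratio of Ccr7+ DC-like nuclei to -0.12. Members at least 2-fold lower numbered 0 in cDC1-like and 3 in cDC2-like nuclei with TMM factors, and 10 in cDC1-like nuclei without doublet removal. Promoter ratios per nucleus were -0.42 and -0.44 in cDC1-like, -0.32 and -0.35 in cDC2-like nuclei, and for S phase -0.11 in preDC-like and -0.17 in macrophage-like nuclei. The cause of these changes was not tested. In the same comparisons 46 values for the conventional classes and 256 others moved little, and 91 others moved in size only.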
